A study of Daphnia magna with 22 samples.

Results

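The 200 gene models described here are those whose RNA level differed most between females of the same clone on the same treatment, in 22 sequenced bodies of the water flea Daphnia magna. They were taken from 14657 rows of a count table, of which 2384 met the limits set for the choice. A row had to have an ID that starts with KZ and stands on at most 4 rows, a mean level of 10 to below 2000 CPM (counts per 1000000 counts of the library), a difference between the clones below 3 on the log2(CPM + 1) scale, and no shift of 0.5 or more in the same direction in both clones under caloric restriction. These 2384 rows were ranked by the standard deviation (SD) of log2(CPM + 1) within the 8 groups of clone and treatment, and the first 200 were taken. The spread between animals therefore chose the members, and its size is a description.

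The animals were adult females of 2 clones kept by asexual reproduction, GB, taken from a lake in London that holds water all year, and IL, taken from a Jerusalem pond that dries up in summer, both held at 20 °C on a green alga. Caloric restriction (CR) meant 100000 algal cells per mL. BHB females had the full diet of 400000 cells per mL with a daily bath of 2 h in beta-hydroxybutyrate, a ketone body, at 2.5 mM. NMN females had the full diet with the same bath in nicotinamide mononucleotide, a precursor of NAD+, at 0.1 mM. Control females had the full diet, and control and CR females were bathed in plain medium. There were 3 females per clone in CR, BHB and control and 2 per clone in NMN, each 1 library, of 8503141 to 14353733 counts. From about a week of age they lived 5 to a tube. Their age at sampling was 75 ± 2 days. The deposited design text also says that each female was taken within a day of laying eggs, to hold the phase of the moulting and ovary cycle alike, and that the eggs were removed before extraction. All females of a clone descend from 3 stock females, so p-values measure the spread between animals that may share a mother or a tube.

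Females of a Daphnia clone are close to genetically identical, since they arise from unfertilised eggs. An adult Daphnia passes through a repeated cycle in which the old cuticle is shed, a clutch is laid into the brood chamber soon afterwards and the ovaries begin to load yolk for the next clutch. Transcripts for cuticle and yolk proteins are known to rise and fall along such cycles in crustaceans. The table names gene models by protein accession and pairs none with a gene name, and 0 of the 200 IDs matched the RefSeq gene table for this species, so no function is given for any member. RNA came from whole bodies, in which fewer cells of a type and less RNA per cell cannot be told apart.

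The members spanned a wide range of spread. Their within-group SD ran from 0.526 to 3.48 on the log2(CPM + 1) scale with a median of 0.919, against a median of 0.190 in the other 2184 rows that could have been chosen. The last inside were KZS20032 (SD 0.527) and KZS17660 (0.526), and the first outside were KZS02954 (0.525) and KZS13699_1 (0.518). Mean levels ran from 10.1 to 1852 CPM with a median of 67.3. The SD that counting error alone would give had a median of 0.0694, and the observed SD was 4.39 to 85.1 times the counting SD of the same member. In 150 members at least 1 group held animals that lay 2 or more log2 units apart, and in 64 members 4 or more. The rule pooled the 2 clones, and the members' spread lay in both. Their median SD was 0.862 over the 11 GB females and 0.914 over the 11 IL females, against 0.196 and 0.167 in the other 2184 rows. The SD was over 2 times larger in GB in 11 members and over 2 times larger in IL in 15.

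**Figure D1:**
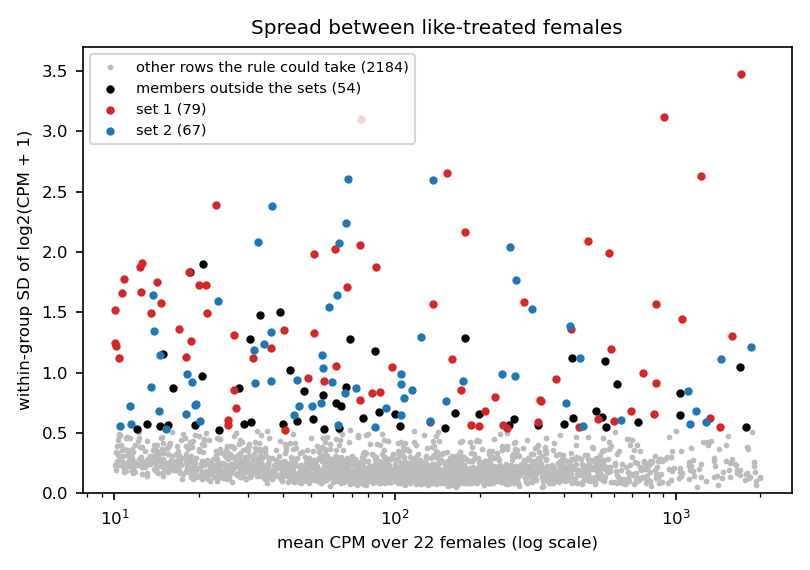
Within-group SD of log2(CPM + 1) (y axis) against mean CPM over the 22 females (x axis, log scale) for the 2384 rows that could be chosen, 1 point per gene model. The 200 members lie above 0.526 at every level, and those above an SD of 2 all belong to set 1 or set 2.

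The members did not vary independently of each other. Residuals (each value minus the mean of its clone-by-treatment group) were clustered by Pearson r over the 22 libraries, with average linkage divided at a mean r of 0.5. This gave 2 sets of 10 or more members that together held 146 of the 200. The number of such sets was 4 without IL CR replicate 1 and 3 without GB control replicate 2, without IL control replicate 2 or without either of the IL NMN libraries. Set 1 had 79 members with a median r of 0.85 between pairs, and set 2 had 67 members with a median r of 0.82. The sets ran opposite to each other: of 5293 pairs with a member in each set, 5292 had a negative r, with a median of -0.82. The first principal axis of the members' residuals held 61.2% of their scaled variance and the second 7.42%. On that axis 138 members had an absolute r of 0.7 or more, 74 in one direction and 64 in the other. In the other 2184 rows the first axis held 31.0%, and in the 200 rows ranked next after the members 31.3%. These correlations share libraries and depths and rest on 14 residual degrees of freedom. The axis held 46.4% and 98 members when IL CR replicate 1 was left out, and 52.2% and 118 members without GB control replicate 2.

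Set 1 was the more variable. It supplied 32 of the 50 members with the highest spread, set 2 supplied 14, and 4 belonged to neither. The median SD was 1.23 in set 1 and 0.92 in set 2, at median levels of 82.6 and 62.7 CPM. Both sets contained scarce and abundant transcripts, from 10.1 to 1714 CPM in set 1 and from 10.4 to 1852 CPM in set 2. IDs on more than 1 row, between which reads may have been divided, made up 13 members of set 1 and 6 of set 2.

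**Figure D2:**
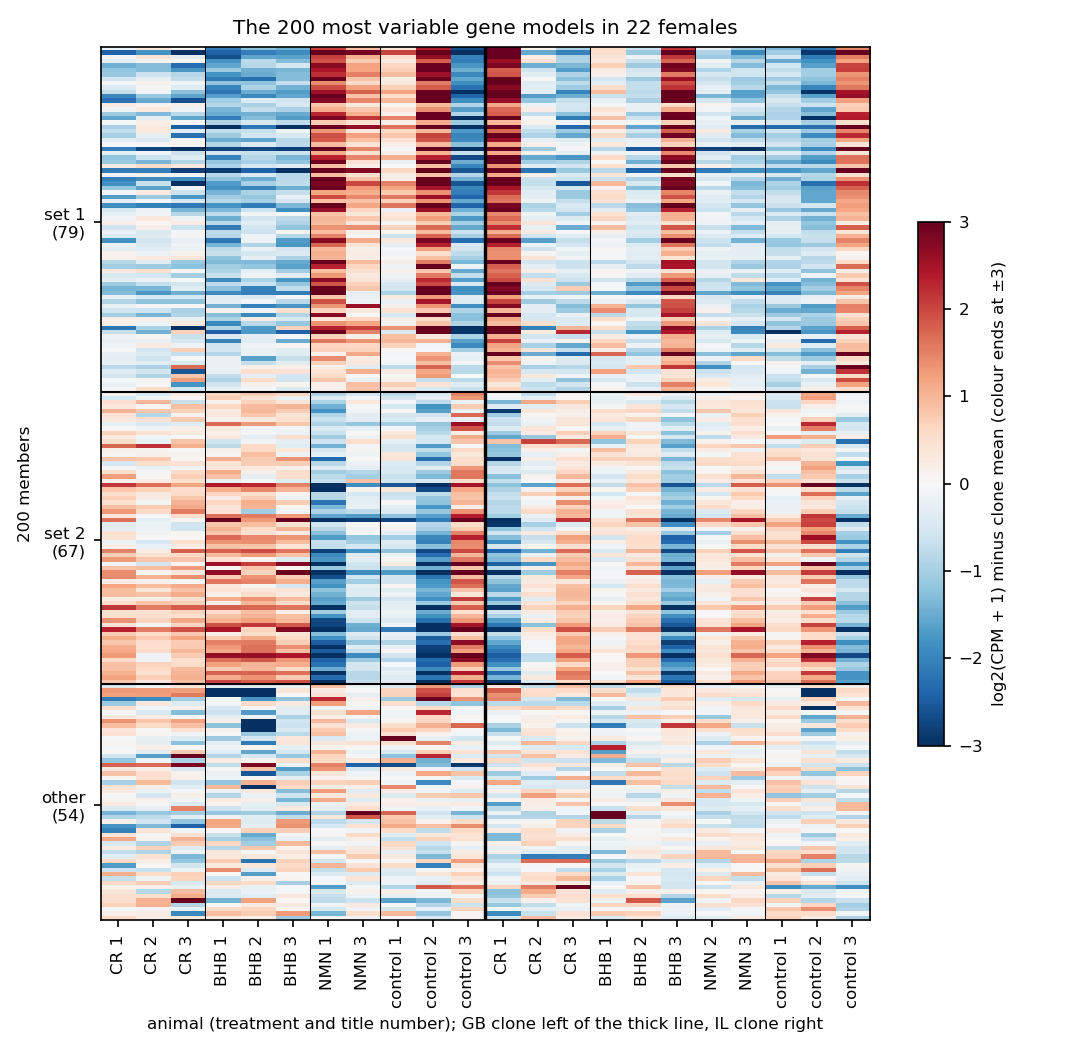
Level of the 200 members (rows) in the 22 females (columns), as log2(CPM + 1) minus the member's mean in that clone (mean of its 4 group means); red is higher and blue lower. Rows are divided into set 1 (79), set 2 (67) and the other 54, and within each are ordered by their correlation with the first axis. Columns in which set 1 is red have set 2 in blue; in IL CR, IL BHB, IL control and GB control they stand beside like-treated females with the opposite colours, while both GB NMN females have set 1 in red.

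In both sets a few females stood at the ends. The position of a female is given as the median over a set of log2(CPM + 1) minus the member's clone mean. In GB, set 1 stood at -0.40, -0.33 and -0.51 in CR replicates 1, 2 and 3, and at -1.16, -0.82 and -0.81 in BHB replicates 1, 2 and 3. It stood at 1.59 and 0.81 in NMN replicates 1 and 3. In GB control it stood at 0.23, 1.75 and -1.52 in replicates 1, 2 and 3. The GB controls thus covered the range of all other GB females, while the 3 CR and the 3 BHB females each lay close together.

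In IL, set 1 stood at 1.97, -0.33 and -0.66 in CR replicates 1, 2 and 3, and at 0.07, -0.57 and 1.87 in BHB replicates 1, 2 and 3. It stood at -0.34 and -0.75 in NMN replicates 2 and 3, and at -0.73, -1.17 and 1.24 in control replicates 1, 2 and 3. In each of the IL groups of 3 a single female stood high, and the groups overlapped across most of the range. Set 2 mirrored this order. It was lowest in GB control replicate 2 (-1.65), GB NMN replicate 1 (-1.50), IL BHB replicate 3 (-1.39) and IL CR replicate 1 (-1.18), and highest in GB control replicate 3 (1.27).

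Counted by member, IL CR replicate 1 was the highest of its group in 79 of 79 members of set 1, IL control replicate 3 in 79, IL BHB replicate 3 in 78 and GB control replicate 2 in 73. The same 4 females were the lowest of their groups in 64, 60, 66 and 60 of the 67 members of set 2. No female led set 1 in this way in GB CR, where replicates 1, 2 and 3 were highest in 15, 38 and 26 members, or in GB BHB, where they were highest in 8, 43 and 28. In the NMN groups of 2, GB NMN replicate 1 was the higher in 72 of 79 members of set 1 and IL NMN replicate 2 in 63. The median gap between the highest and the lowest female of a group in set 1 is given in folds of CPM + 1. It was 7.31-fold in IL CR, 5.35-fold in IL BHB, 6.19-fold in IL control and 8.08-fold in GB control. It was 1.44-fold in GB CR and 1.603-fold in GB BHB. In the NMN groups it was 1.81-fold in GB and 1.38-fold in IL, but a gap over 2 females cannot be compared with one over 3. No single group carried the spread alone. As a mean over members of the share of each member's within-group sum of squares, GB control held 27.4%, IL CR 19.8%, IL control 17.9% and IL BHB 15.8%. Each of these groups has 14.3% of the residual degrees of freedom.

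**Figure D3:**
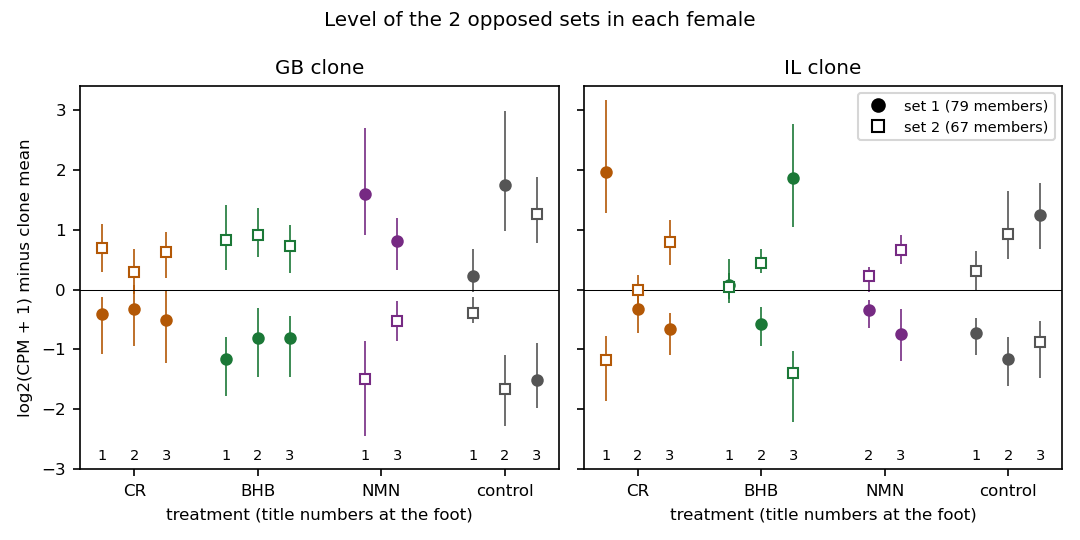
Position of each female on set 1 (filled circles) and set 2 (open squares), as the median over the set of log2(CPM + 1) minus the clone mean (y axis); bars span the interquartile range over the set's members and numbers at the foot are title numbers. The 2 sets part in opposite directions, by most in GB control replicates 2 and 3, GB NMN replicate 1, IL CR replicate 1 and IL BHB replicate 3.

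Depth and library number of the females at opposite ends were as follows, and their part in the result was not tested. IL CR replicates 1 and 3 had 11213342 and 11512346 counts and library numbers 18 and 22, and IL BHB replicates 3 and 2 had 13627714 and 9220730 counts and numbers 7 and 13. IL control replicates 3 and 2 had 12710960 and 14225214 counts and numbers 12 and 11, and GB control replicates 2 and 3 had 13358773 and 14353733 counts and numbers 10 and 9. The female with the high set 1 was thus the deeper library in IL BHB and the shallower in the other groups. The share of counts taken by the 10 most abundant rows of the table was 16.6% in GB control replicate 2 and 20.7% in replicate 3, and 10.2% in IL CR replicate 1 and 16.2% in replicate 3. It was 15.8% in IL BHB replicate 3 and 17.05% in replicate 2, and 15.7% in IL control replicate 3 and 16.4% in replicate 2. This share thus was lower in the female with the high set 1 in these pairs, and its part in the result was not tested. The 200 members together took 9.50% of counts in IL CR replicate 1, 8.38% in GB control replicate 2 and 3.94% to 7.26% in the other libraries.

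The members with the highest spread were KZR98782 and KZS21111, both in set 1. In GB, KZR98782 had 20.6, 12.7 and 10.2 CPM in CR replicates 1, 2 and 3, 12.4, 12.9 and 12.1 CPM in BHB replicates 1, 2 and 3, 9927 and 246.5 CPM in NMN replicates 1 and 3, and 86.8, 11323 and 9.20 CPM in control replicates 1, 2 and 3. In IL it had 11989, 25.97 and 54.4 CPM in CR replicates 1, 2 and 3, 31.4, 9.11 and 3336 CPM in BHB replicates 1, 2 and 3, 7.38 and 4.93 CPM in NMN replicates 2 and 3, and 22.7, 14.3 and 535.5 CPM in control replicates 1, 2 and 3. The transcript was below 100 CPM in 16 females and at 3336 to 11989 CPM in 4. Between like-treated females the highest exceeded the lowest 1231-fold in GB control and 462-fold in IL CR. KZS21111 followed the same females, at 6960 CPM in IL CR replicate 1, 2719 CPM in IL BHB replicate 3, 4019 CPM in GB NMN replicate 1 and 4223 CPM in GB control replicate 2, against 9.64 to 849 CPM in the other 18 libraries.

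KZS16226 and KZS10750_4 were the most typical members of set 1, with a mean r of 0.89 to the other 78. In GB, KZS16226 had 462.4, 681.8 and 564.1 CPM in CR replicates 1, 2 and 3, 123.9, 222.4 and 192.3 CPM in BHB replicates 1, 2 and 3, 2243 and 983.8 CPM in NMN replicates 1 and 3, and 697.2, 2777 and 85.1 CPM in control replicates 1, 2 and 3. In IL it had 3726, 500.5 and 234.9 CPM in CR replicates 1, 2 and 3, 644.1, 287.9 and 2066 CPM in BHB replicates 1, 2 and 3, 379.4 and 214.9 CPM in NMN replicates 2 and 3, and 179.0, 99.8 and 1295 CPM in control replicates 1, 2 and 3. This transcript was graded over the females, with intermediate levels in GB CR, GB NMN replicate 3 and IL BHB replicate 1. The ID of KZS10750_4 stands on 4 rows, so its level is uncertain; it had 621.6 CPM in IL CR replicate 1 and 763.5 CPM in GB control replicate 2, and its highest female exceeded its lowest 378-fold in GB control.

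In set 2 the most typical members were KZS17021 and KZS06893, with a mean r of 0.88 and 0.87 to the other 66. In GB, KZS17021 had 311.1, 204.4 and 299.4 CPM in CR replicates 1, 2 and 3, 516.1, 506.1 and 467.2 CPM in BHB replicates 1, 2 and 3, 11.6 and 82.7 CPM in NMN replicates 1 and 3, and 126.8, 14.1 and 790.5 CPM in control replicates 1, 2 and 3. In IL it had 30.6, 124.9 and 473.4 CPM in CR replicates 1, 2 and 3, 156.6, 284.4 and 20.3 CPM in BHB replicates 1, 2 and 3, 190.6 and 345.7 CPM in NMN replicates 2 and 3, and 251.0, 677.4 and 45.5 CPM in control replicates 1, 2 and 3. The females with the most KZS16226 had the least KZS17021. KZS06893 and KZS13379 had the most negative r to the first axis, both at -0.98; KZS06893 fell to 1.86 CPM in GB NMN replicate 1 and 3.07 CPM in GB control replicate 2, and reached 146.5 CPM in GB control replicate 3.

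**Figure D4:**
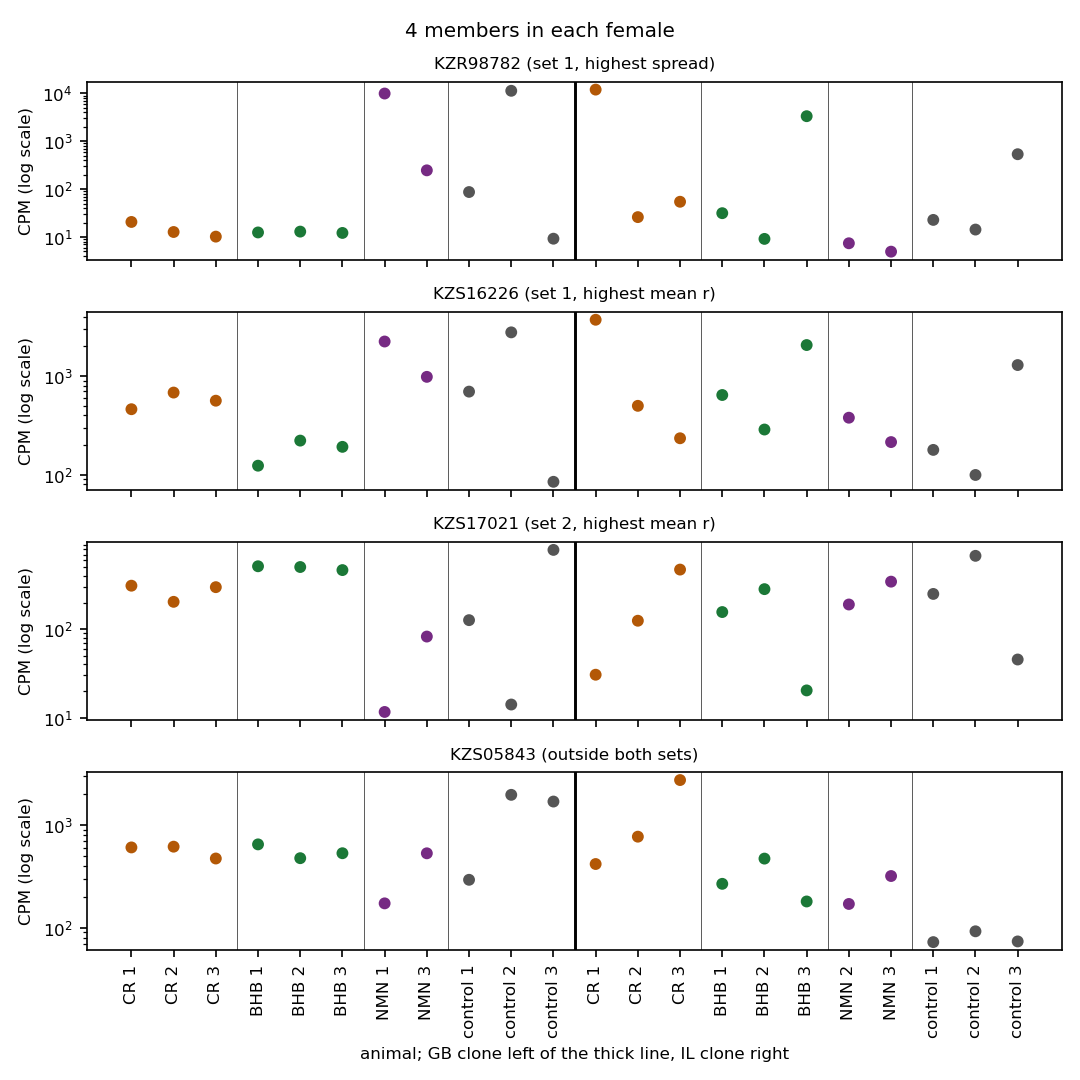
CPM (y axis, log scale) of 4 members in each of the 22 females (x axis), coloured by treatment. KZR98782 and KZS16226 of set 1 peak in the females in which KZS17021 of set 2 is lowest, such as GB control replicate 2 (11323, 2777 and 14.1 CPM), while KZS05843, outside both sets, is highest in IL CR replicate 3 (2733 CPM).

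The clones gave a measure of the spread in animals that a list had not used. When the same rows were ranked by the spread of the 11 GB females alone and of the 11 IL females alone, the lists of 200 shared 152 gene models, 76% of each, where a list takes 8.39% of the rows. The GB list had a median SD of 0.902 in the IL females, against 0.175 over all 2384 rows, and the IL list had 0.842 in the GB females, against 0.209. Co-variation carried over as well, where r in each clone rests on 7 residual degrees of freedom. The members were chosen by the spread in both clones, so pairs within the list of 1 clone are given too. Of 3020 member pairs with r of 0.8 or more in GB, 2893 (95.8%) had r of 0.5 or more in IL, as did 31.9% of all 19900 pairs. Of 4226 such pairs in IL, 3704 (87.6%) had r of 0.5 or more in GB, against 27.9% of all pairs. Within the GB list 2726 of 2909 such pairs (93.7%) had r of 0.5 or more in IL, against 30.6% of all its pairs. Within the IL list 3808 of 4385 (86.8%) had r of 0.5 or more in GB, against 28.8%. Of 2956 member pairs with r of -0.8 or less in GB, 2777 (93.9%) had r of -0.5 or less in IL, as did 32.4% of all pairs. Of 3843 such pairs in IL, 3299 (85.8%) had r of -0.5 or less in GB, against 27.6% of all pairs. The GB figures lean on the controls: with those 3 libraries left out, a step chosen after seeing the data, 980 pairs were kept, 76.4% of those with r of 0.8 or more. The count of kept pairs was 1304 without GB control replicate 2, 1557 without GB control replicate 3 and 1464 without IL CR replicate 1, with 85.7%, 88.9% and 85.9% kept.

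Sets formed in GB alone were then read in IL. The largest had 68 gene models (66 of them members) with a median r of 0.86 in GB and 0.92 in IL, and the second had 62 (57 of them members) with 0.85 in GB and 0.86 in IL. Between these sets the median r in IL was -0.86. IL CR replicate 1 was the highest of its group in 67 of the 68, IL BHB replicate 3 in 68 and IL control replicate 3 in 66. In the second set these females were the lowest of their groups in 55, 61 and 56 of the 62. Sets formed in IL alone, of 85 and 74 gene models, had a median r of 0.78 and 0.74 in GB and -0.76 between them.

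**Figure D5:**
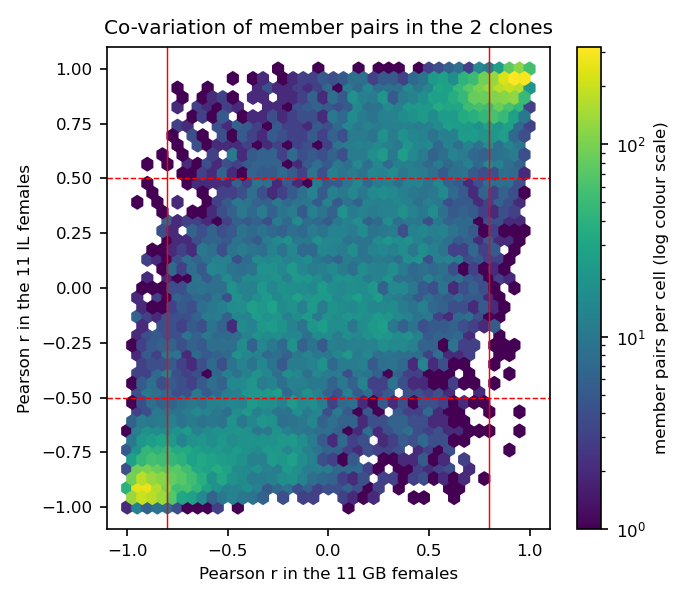
Pearson r of the residuals of each pair of the 200 members in the 11 GB females (x axis) against the 11 IL females (y axis), with the number of pairs per cell in colour (log scale). Pairs beyond 0.8 or -0.8 in GB (solid lines) crowd into the corners beyond 0.5 or -0.5 in IL (dashed lines). The share is 95.8% at the positive and 93.9% at the negative end, against 31.9% and 32.4% of all pairs.

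The other 54 members formed 21 smaller clusters, 6 of them of a single gene model, and their first axis held 22.1% of their variance. The largest had 9 members with a median r of 0.60. Its median residual was lowest in GB BHB replicate 2 (-1.42), then in IL control replicate 2 (-0.76). It was 1.03 and 0.79 in GB BHB replicates 1 and 3, but the residuals of a group sum to 0 in each member. KZS04749_2, picked from this cluster after its values were seen, had 1214, 48.6 and 704 CPM in GB BHB replicates 1, 2 and 3. In the other 19 libraries it had 779 to 2771 CPM. GB BHB replicate 2 held 51.4% of the within-group sum of squares of KZS04749_2, against 17.7% in KZS12646 of the same cluster. GB BHB replicate 2 also had the lowest depth, and its part in the result was not tested. A cluster of 5 members was lowest in GB BHB replicate 3 (-1.05) and another of 5 in IL CR replicate 1 (-1.19).

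Some members owed their rank to 1 female. In 6 of the 200 a single library held over 50% of the within-group sum of squares. KZS00637 had 443.0 CPM in IL BHB replicate 1, with 62.8% of its sum of squares there, and 0 to 5.68 CPM in the other 21 libraries. KZS07562 had 508.2 CPM in the same female, with 62.3% there, and 70.3 to 97.9 CPM elsewhere. The third member of their cluster, KZS06954, had 186.9 CPM in that female and 175.4 CPM in GB NMN replicate 3, against 0 to 8.42 CPM in the other 20 libraries. All 3 were high in this 1 IL female, and their r to the first axis was -0.11 for KZS00637, 0.09 for KZS07562 and -0.11 for KZS06954.

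Whether the supplements moved the members was tested over all 4965 gene models that passed a filter on low counts, which all 200 members passed, with edgeR's quasi-likelihood test and Benjamini-Hochberg adjustment. These comparisons share the control libraries. In BHB against control 0 of the 200 members passed an adjusted p of 0.05, where 0% of all gene models did. At an unadjusted p under 0.05 there were 5 members in edgeR (151 of all gene models), and DESeq2 called 0 members. The median log2 fold change was -0.25 over the members and -0.01 over all gene models, and 138 of 200 members and 2574 of 4965 gene models measured lower in BHB. Set 1 had a median of -0.50 with 73 of 79 lower, and set 2 a median of 0.14 with 24 of 67 lower. Since the members of a set vary together, these counts are not of independent genes. For set 1 the value pools clones that went opposite ways. In GB it stood at -1.16, -0.82 and -0.81 in BHB replicates 1, 2 and 3, against 0.23, 1.75 and -1.52 in control. In IL it stood at 0.07, -0.57 and 1.87 in BHB, against -0.73, -1.17 and 1.24 in control. The BHB and control females overlapped in both clones. The members' standard errors had a median of 0.54 against 0.22 over all gene models. The rule ranked rows by the spread within groups, which enters these errors, so few calls among members follow in part from the choice. The counts of 0 for BHB and NMN thus do not show that the supplements left the members unchanged.

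The members named below had the smallest p among members in each direction. In BHB against control these were KZS00637 (log2 fold change 6.92 ± 2.64 SE) and KZS11460 (-1.09 ± 0.46), both with an adjusted p of 0.999 in edgeR. The value of KZS00637 comes from 1 female: without IL BHB replicate 1 its log2 fold change was -0.36. KZS11460 had 34.3 to 98.1 CPM in the 6 BHB females, against 38.0 to 605.6 CPM in the 6 controls, and the groups overlapped. The highest control, GB control replicate 2, held 42.3% of its within-group sum of squares, and without that library its log2 fold change was -0.36.

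In NMN against control 0 of the 200 members passed, where 0% of all gene models did. At an unadjusted p under 0.05 there were 6 members in edgeR (256 of all gene models), the smallest adjusted p among members was 0.937, and DESeq2 called 0 members. The median log2 fold change was -0.11 over the members and -0.01 over all gene models. KZS06954 (4.49 ± 1.83 SE) and KZS11518 (-1.23 ± 0.46) are named here, each with an adjusted p of 0.937. KZS06954 owes its value to GB NMN replicate 3, without which it was -2.59. KZS11518, in set 2, had 5.84 and 12.04 CPM in GB NMN and 6.23 and 13.6 CPM in IL NMN, against 19.8, 8.98 and 30.4 CPM in GB control replicates 1, 2 and 3 and 27.9, 24.6 and 13.5 CPM in IL control replicates 1, 2 and 3.

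The choice of members used the CR comparison, so its values are a description. In CR against control 0 of the 200 members passed in edgeR, where 3.36% of all gene models did, with 17 members at an unadjusted p under 0.05 (874 of all gene models) and 7 members called by DESeq2. In BHB against CR 0 members passed, where 3.02% of all gene models did. There 12 members had an unadjusted p under 0.05 in edgeR (840 of all gene models) and DESeq2 called 4. In NMN against CR 0 passed, where 0.443% did. There 5 members had an unadjusted p under 0.05 in edgeR (488 of all gene models) and DESeq2 called 2. The percentages are those of edgeR. The share of all gene models that DESeq2 called is not given here, so nothing about the members is read from its counts. In CR against control KZS14798 had a log2 fold change of 2.11 ± 0.84 SE (adjusted p = 0.191 in edgeR) and KZS06337, in set 2, had -1.01 ± 0.34 (adjusted p = 0.111, and 0.0337 without GB control replicate 2). KZS14798 had 82.3, 78.97 and 172.3 CPM in GB CR replicates 1, 2 and 3, against 2.83, 8.98 and 2.30 CPM in GB control replicates 1, 2 and 3. In IL it had 68.5, 145.5 and 135.2 CPM in CR replicates 1, 2 and 3, against 97.6, 70.9 and 69.5 CPM in control replicates 1, 2 and 3. The groups were apart in GB and overlapped in IL.

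Between the clones 32 of the 200 members passed, 16% of them, where 44.3% of all gene models did. The limit on clone differences took the rows open to the choice only from 2561 to 2528. The rule also chose members for a wide spread, which enters the error of this test, so nothing is read from the lower share. The median standard error was 0.407 over the members and 0.16 over all gene models, and the median absolute log2 fold change 0.412 and 0.311. Of the 32 members that passed, 17 were higher and 15 lower in GB, and 20 lay outside both sets. Among all gene models 22.4% passed as higher and 21.9% as lower. KZS05811 was lower in GB (log2 fold change -2.74 ± 0.26 SE, adjusted p = 4.33e-08 in edgeR), at 14.8 to 86.1 CPM in the 11 GB females, against 139.8 to 486.0 CPM in the 11 IL females. KZS11330_1 was higher in GB (2.25 ± 0.27, adjusted p = 5.65e-07), at 18.04 to 36.1 CPM in GB, against 1.64 to 11.03 CPM in IL. In neither did the clones overlap.

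Whether a treatment acted differently in the clones was tested as an interaction in an 8-group model. The interaction passed in 0 of the 200 members for CR, for BHB and for NMN, where 0% of all gene models passed in each. At an unadjusted p under 0.05 there were 31 members for CR (411 of all gene models), 36 for BHB (377) and 3 for NMN (154). Since the members of a set vary together, these are not counts of independent genes. DESeq2 called 4 members for CR, 0 for BHB and 0 for NMN, and its share over all gene models is not given here. The rule left out shifts shared by both clones under CR but kept opposite ones, so the CR interaction was partly used. KZS05843, picked after its values were seen, had the smallest p there (-5.49 ± 1.05 SE, adjusted p = 0.125 in edgeR). It had 603.5, 613.8 and 470.7 CPM in GB CR replicates 1, 2 and 3, against 292.0, 1962 and 1688 CPM in GB control replicates 1, 2 and 3. In IL it had 415.9, 768.0 and 2733 CPM in CR replicates 1, 2 and 3, against 72.2, 92.0 and 73.3 CPM in control replicates 1, 2 and 3. The groups overlapped in GB and were apart in IL. The adjusted p was 0.0263 without GB control replicate 1 and 0.0386 without IL CR replicate 1.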

How the data were processed

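Whole-body RNA of single females was sequenced as strand-marked libraries, and the authors deposited raw read counts per gene model, per the file headers and labels. Per the submitters' processing notes STAR, DESeq2, FastQC and Trim Galore 0.4.5 were used, with no role or order stated. For the genome build and counting settings the sources used here give nothing. Clone, treatment and replicate number were read from letters and digits of the sample titles, with the letter for caloric restriction assigned by elimination. The sign in the age, a private-use character in the deposited text, was read as plus or minus.

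Counts were divided by column totals (CPM), and residuals from the 8 group means of log2(CPM + 1) were ranked, correlated and clustered with Python 3.11.15, NumPy 2.4.6, SciPy 1.17.1 and pandas 2.3.3. Tests across 4965 gene models used edgeR 4.0.16 (R 4.3.3) after filterByExpr and TMM scaling, with an additive model of clone and treatment or, for interactions, an 8-group model, and Benjamini-Hochberg adjustment over all gene models. DESeq2 1.42.0 was an alternative, as were other scalings, pseudocounts, measures of spread, list sizes, level limits, cluster heights, a replicate block and leaving out each library. The procedures were tested on simulated data. Depth was 8503141 to 14353733 counts per library. The members and lists were chosen with earlier results of these data known. Apart from members said to be picked after their values were seen, the text names those with the highest spread, those at the edge of the choice, the most typical of each set, those at the negative end of the first axis, those most owed to 1 library, and the smallest p in each direction of a comparison. IDs with a suffix stand on more than 1 row and are uncertain.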

Additional observations from a re-analysis of the deposited data

How the results depend on the processing

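The counts of members retained, in sets, on the first axis, shared between the clones' lists and called, and the pairs kept across clones, were recomputed under the alternatives that bear on each. Leaving out each of the 22 libraries in turn retained 139 to 197 of the 200 members, with 138 to 156 in sets and 129 to 157 shared between the clones' lists. On the first axis this left 98 to 145 members, and 1304 to 3729 pairs were kept across clones. Calls ranged from 28 to 37 between GB and IL and from 0 to 1 in CR against control (1 without GB control replicate 2 or GB CR replicate 2), in BHB against CR (1 without GB BHB replicate 2, IL BHB replicate 3 or GB control replicate 2) and in the CR interaction (1 without GB control replicate 1, GB BHB replicate 2 or IL CR replicate 1). Requiring a mean of 50 CPM retained 123 members and 1892 kept pairs, since fewer rows are then open to the choice. A list of 100 had 85 members on the axis. Without the 3 GB control libraries, left out after seeing the data, 980 pairs were kept. DESeq2 called 7 members in CR against control, 4 in BHB against CR, 2 in NMN against CR and 4 in the CR interaction. Its shares over all gene models are not given here. BHB against CR had 1 call in edgeR when its groups were fitted alone. The cause of these differences was not tested. With each library left out in turn, KZS00637 in BHB against control ranged from -0.36 (without IL BHB replicate 1) to 7.93. KZS06954 ranged from -2.59 to 6.97 in NMN against control and from -2.31 to 7.81 in the NMN interaction, both lowest without GB NMN replicate 3.

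The labels do not say what the replicate numbers mark. Same-numbered libraries of different groups had residual correlations of -0.42 to 0.46, with 10 of 30 pairs over 0.1. Among pairs with different numbers 20 of 60 were over 0.1, so the numbers were not taken to pair the samples over all groups. Between GB BHB and GB CR all 3 same-numbered pairs were over 0.1 (0.31, 0.32 and 0.46). The same held between IL control and IL BHB, at 0.15, 0.35 and 0.32 for replicates 1, 2 and 3. Between IL control and IL CR all 3 were negative, at -0.42, -0.20 and -0.20 for replicates 1, 2 and 3. These pairs of groups were picked after their values were seen. What the numbers mark in these groups was not tested. With the replicate block 187 members were retained, 144 lay on the axis, 158 in sets and 149 in both clones' lists, with 2836 pairs kept; 0 members were called in any treatment comparison or interaction and 30 between GB and IL.

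With 2 or 3 females a group, the members' median standard error of 0.54 (log2) in BHB against control limits which treatment differences are called. The rule chose the members for the wide within-group spread that enters this error.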

Other observations

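Rows outside the 200 also followed the first axis. Of 2571 other rows with a mean of 10 CPM or more, 226 (8.79%) had an absolute r of 0.7 or more to it, 139 positive and 87 negative. Of the 171 rows left out for a shared CR difference 29 (16.96%) did so, and of the other 2184 rows open to the choice 182 (8.33%). Of the 226 rows, 26 had an SD at least as large as the smallest among the members. The 29 rows with a shared CR difference held 20 of these 26, and their median SD was 0.724. The nearest to the axis were KZS13993 (r of 0.97, SD 0.393) and KZS08802_1 (r of 0.96, SD 0.514). Both were open to the choice, so their lower spread than the members follows from the rule.

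Some members had consecutive accession numbers. Of 337 pairs of rows with consecutive numbers among those open to the choice, 6 (1.78%) were both members. Members are 8.39% of single rows, which is not a share of pairs, so the 2 percentages cannot be compared. Of the 44 members with a consecutive number open to the choice, 9 stood next to another member. The runs, picked after their values were seen, were KZS13186 to KZS13189, 4 IDs in 4 different clusters, KZS20923 to KZS20925, 3 IDs all in set 1, and KZS12646 with KZS12647, both in the cluster of 9. The 4 pairs of members that share an ID had a median r of 0.97.

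The within-group sum of squares was spread otherwise in the members than in the other 2184 rows. As a mean of the shares of single gene models, GB BHB held 6.98% in the members, against 25.04% in the other rows. GB control held 27.4% in the members, against 14.1% in the other rows.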
